A study of Mus musculus with 6 samples.

Results

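A set of 7 miRNA entries was examined in mouse serum: miR-126-3p and miR-126-5p, miR-143-3p, and the 4 arms miR-199a-3p, miR-199b-3p, miR-199a-5p and miR-199b-5p. They were chosen by name from a table of 1281 mature miRNAs, and 507 of these entries had at least 1 read. The entries miR-199a-3p and miR-199b-3p held the same count in each of the 6 libraries and were counted once, which left 6 members. The serum came from mice that had all received a sciatic nerve allograft, a piece of donor nerve sewn into a gap in the nerve of another strain. FK506 (tacrolimus), an immunosuppressant that inhibits calcineurin in T cells, was injected under the skin at 1 mg/kg per day in the FK506 group and was not given in the untreated group. Each group was sampled 3, 7 and 14 days after surgery, with 1 library per treatment and day. The animals were males aged 10 to 12 weeks with 3 animals per group and day, and the sources used here do not say whether a library is 1 animal or several pooled. Donors were Balb/c, while the recipient is given as C57BL/6 by the sample labels and as Balb/c in the surgical protocol. No unoperated, sham or same-strain graft library was analysed here, so a level cannot be set against serum without a graft.

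miRNAs are short RNAs cut from a hairpin precursor, whose 5p and 3p arms can both be loaded into Argonaute and which pair with target mRNAs mainly through the seed, bases 2 to 8. miR-126 lies in an intron of Egfl7, is characteristic of endothelium, and acts in vascular integrity and angiogenesis through targets such as Spred1. miR-143 is made with miR-145 from a common precursor transcript and maintains the contractile state of vascular smooth muscle. miR-199a and miR-214 are made from the Dnm3os transcript in mesenchymal cells, and the miR-199 family is known from fibroblasts and skeletal development. Platelets also carry miR-126, and blood cells carry some miR-199a-3p, so these names describe typical sources and not a source shown in this serum. In serum, fewer releasing cells of a type and less RNA released per cell cannot be told apart.

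The sequences are shown because they settle which entries can be told apart by a read. They are RefSeq sequences on GRCm38.p6, written 5′ to 3′, with the seed in capitals. Of the 7 entries 4 are shown with their mature sequence.
miR-126-3p (RefSeq miR-126a-3p, chr2:26591402-26591423, plus strand): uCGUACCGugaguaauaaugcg
miR-199a-3p (chr1:162217883-162217904, plus strand, and chr9:21496498-21496519, minus strand): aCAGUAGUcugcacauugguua
miR-199b-3p (chr2:32318524-32318545, plus strand): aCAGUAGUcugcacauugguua
miR-199a-5p (chr1:162217844-162217866, plus strand, and chr9:21496537-21496559, minus strand): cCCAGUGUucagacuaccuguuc
The miR-199a-3p and miR-199b-3p sequences are identical over all 22 bases, so a read cannot be assigned to either, and the equal counts of the entries are those of a single sequence. No other mature entry among those searched in the RefSeq table had the seed of miR-126-3p. The search did not cover every chromosome. The 3 hairpins that give this 3p arm are shown with that arm in capitals.
Mir199a-1 (chr9:21496495-21496564, minus strand): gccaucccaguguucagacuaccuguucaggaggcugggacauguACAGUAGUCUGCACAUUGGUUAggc
Mir199a-2 (chr1:162217814-162217923, plus strand): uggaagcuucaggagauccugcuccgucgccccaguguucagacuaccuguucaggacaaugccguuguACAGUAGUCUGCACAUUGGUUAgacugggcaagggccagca
Mir199b (chr2:32318460-32318569, plus strand): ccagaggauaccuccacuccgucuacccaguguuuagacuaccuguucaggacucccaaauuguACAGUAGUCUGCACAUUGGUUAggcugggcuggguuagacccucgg
The 5p stretch of Mir199b differs from miR-199a-5p by 1 substitution, C10U, counted from the 5′ end of miR-199a-5p, and has the same bases 2 to 8 as miR-199a-5p. Reads of the 5p arms therefore can be told apart at that base, and those of the 3p arms cannot. In the GENCODE M21 annotation of GRCm38, Mir199a-1 lies in an intron of Dnm2, Mir199b in an intron of Dnm1 and Mir199a-2 in an intron of Dnm3, each on the strand opposite to the coding gene. Mir199a-2 is also in an exon of the noncoding Dnm3os, 5444 bases from Mir214 in the same transcript. The hairpin of miR-126 (Mir126a, chr2:26591357-26591429, plus strand) lies in an intron of Egfl7 on the same strand, and its 3p arm is in capitals.
Mir126a: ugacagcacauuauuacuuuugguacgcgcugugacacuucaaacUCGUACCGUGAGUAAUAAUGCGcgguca

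Depth outside the red cell miRNA pair set the precision of every member. The counts of a library summed to 4897727 to 5806228, and miR-486-5p with miR-3107-5p, which had near-equal counts, took 93.8% to 98.0% of them. A read that matched more than 1 entry may be counted more than once in these sums, which was not tested. All other miRNAs together had 104574, 103058 and 359061 reads with FK506 at days 3, 7 and 14, and 160163, 298117 and 158423 reads without it. Levels below are in CPM, reads divided by an effective library size from TMM, a scaling in edgeR that sets the typical miRNA equal between libraries. The untreated day 7 library stood apart, with a Pearson r of 0.82 to 0.87 to the other libraries over 153 miRNAs on the log2 scale. The 11 neuron and glia miRNAs summed to 12176 reads in it, against 121 to 557 in the other 5 libraries. Each library is the only one of its treatment and day, so a difference at a single day has no replicate check and its interval is a 95% counting interval, which leaves out the spread between animals.

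miR-126-5p was the more abundant arm of the endothelial miRNA, with levels higher with FK506 at days 3 and 14 and not at day 7. It had 316, 182 and 2099 reads at days 3, 7 and 14 with FK506, and 234, 458 and 180 reads in the untreated libraries. Scaled, the level was 90.8, 48.4 and 174 CPM with FK506, against 43.0, 88.6 and 40.5 CPM untreated. The highest value was FK506 at day 14 and the lowest was untreated at day 14, while the ranges of the treatments overlapped. Means were 104 ± 63.7 CPM with FK506 and 57.4 ± 27.1 CPM untreated (SD over 3 days, n = 3 each).

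miR-126-3p, the arm usually studied as the regulator of vascular signalling, was scarce here. It had 17, 28 and 191 reads at days 3, 7 and 14 with FK506, and 27, 42 and 28 reads untreated. Scaled, it was 4.89, 7.45 and 15.8 CPM with FK506, and 4.96, 8.13 and 6.30 CPM untreated. The FK506 day 14 library was the only one above 10 CPM, and the other 5 values lay within a narrow band. The treatments overlapped, with means of 9.38 ± 5.71 CPM with FK506 and 6.46 ± 1.59 CPM untreated (SD, n = 3 each).

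miR-143-3p, of smooth muscle, was the most abundant member and spanned the widest range in CPM. It had 1054, 842 and 6070 reads at days 3, 7 and 14 with FK506, and 1047, 6608 and 597 reads untreated. Scaled, it was 303, 224 and 502 CPM with FK506, and 192, 1279 and 134 CPM untreated. The untreated arm held both the highest level, at day 7, and the lowest, at day 14, so the FK506 values lay inside its range. Means were 343 ± 143 CPM with FK506 and 535 ± 645 CPM untreated (SD, n = 3 each). Its cluster partner miR-145a-5p had 35, 5 and 49 reads with FK506 and 17, 20 and 9 reads untreated, and miR-143-5p had 1 read, in the FK506 day 14 library.

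miR-199a-3p, counted with its identical copy, was higher with FK506 at each day, and its treatments did not overlap. It had 104, 53 and 447 reads at days 3, 7 and 14 with FK506, and 45, 34 and 25 reads untreated. Scaled, it was 29.9, 14.1 and 37.0 CPM with FK506, and 8.27, 6.58 and 5.62 CPM untreated. The lowest FK506 library, at day 7, was above the highest untreated library, at day 3. Means were 27 ± 11.7 CPM with FK506 and 6.82 ± 1.34 CPM untreated (SD, n = 3 each). Of 152 miRNAs fitted, with the copy left out, 15 had all FK506 levels above all untreated levels, which is 9.87%. miR-199a-3p was the only one of the 4 fitted members among them. The values also did not overlap when the counts were scaled by library total (10.5 to 77 CPM with FK506, 4.67 to 8.76 CPM untreated). The share of all miRNAs that did so by library total was not counted.

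The other miR-199 arms were near the limit of detection. miR-199a-5p had 2, 2 and 34 reads at days 3, 7 and 14 with FK506, and 2, 7 and 1 reads untreated. miR-199b-5p had 4 reads in the FK506 day 14 library and 0 in the other 5, where a count of 0 allows up to 3 reads, or 0.101 to 0.291 per 10000 reads outside the pair. Both 5p arms thus had their highest count in the FK506 day 14 library, which had the most reads outside the pair. miR-214-3p, made from the same Dnm3os transcript as miR-199a, had 3, 2 and 7 reads with FK506 and 0, 2 and 3 reads untreated.

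**Figure D1:**
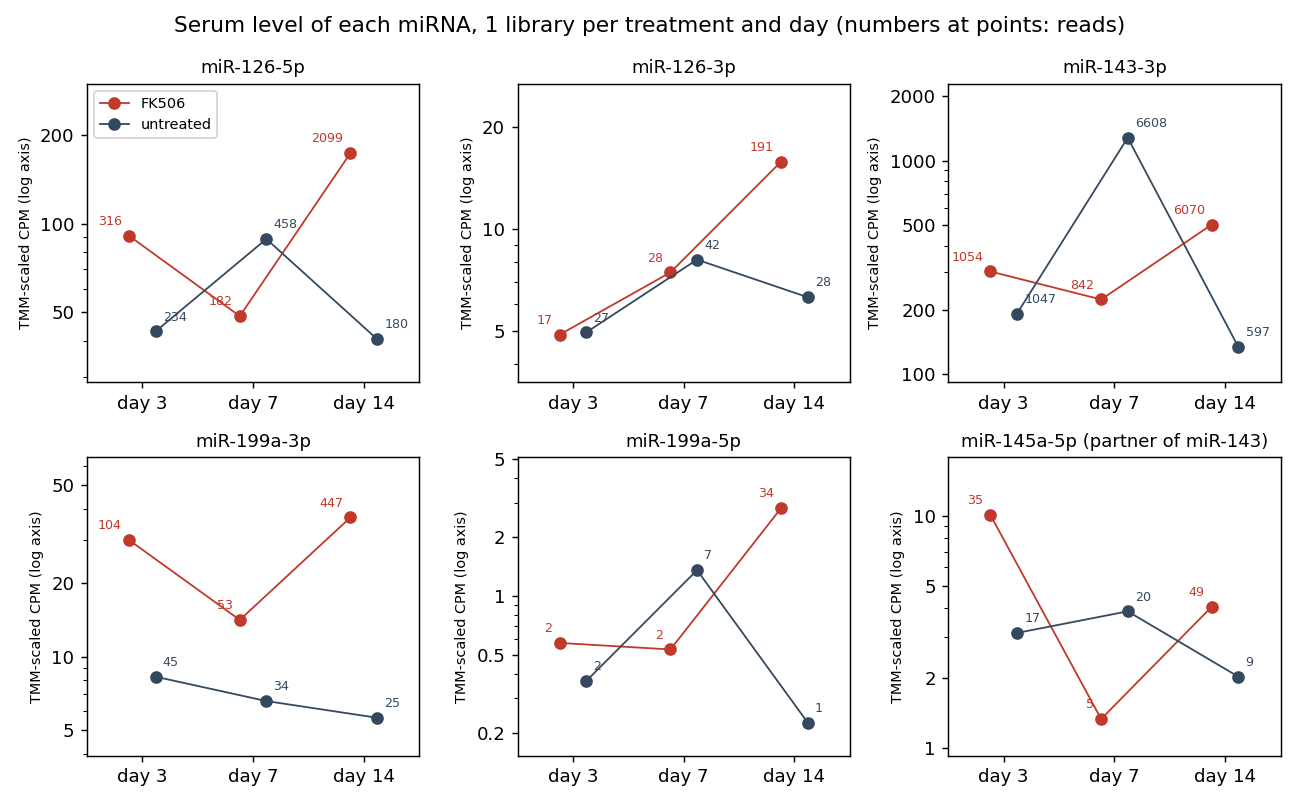
Level of each miRNA in TMM-scaled CPM on a log axis at days 3, 7 and 14, with FK506 points left of untreated points and the reads written at each point. FK506 points for miR-199a-3p lie above all untreated points, while the highest miR-143-3p point is the untreated day 7 library.

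Relative to the reads outside the red cell pair, which needs no TMM factor, miR-199a-3p was again separated by treatment. It had 9.95, 5.14 and 12.4 reads per 10000 at days 3, 7 and 14 with FK506, and 2.81, 1.14 and 1.58 untreated. miR-126-5p had 30.2, 17.7 and 58.5 per 10000 with FK506, and 14.6, 15.4 and 11.4 untreated. On this scale its lowest FK506 value was above its highest untreated value, which was not so on the TMM scale. How many of all miRNAs were separated on this scale was not counted. miR-143-3p had 101, 81.7 and 169 per 10000 with FK506, and 65.4, 222 and 37.7 untreated. It overlapped on both scales.

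At day 3, miR-126-5p and miR-199a-3p were higher with FK506 by a rule of size. By this rule the log2 ratio, with a prior count of 2, must reach 1 in either direction, and 1 of the 2 libraries must hold 50 reads or more. Of 98 miRNAs compared, 20.4% were higher and 11.2% were lower by it, or 20 against 11. The split was 6 against 30 by library total, 12 against 15 by median-of-ratios factors, and 13 against 13 with TMM factors that left out the untreated day 7 library. miR-199a-3p was 3.62-fold higher (95% counting interval 2.53 to 5.25) and miR-126-5p was 2.11-fold higher (1.78 to 2.51). miR-143-3p was 1.57-fold higher (1.44 to 1.72), which is under the rule. miR-126-3p had under 50 reads in both libraries and was not compared, with a log2 ratio of -0.02. The median log2 ratio was 0.86 over the 4 measured members and 0.03 over 156 measured miRNAs. miR-126-5p fell under the rule when the counts were scaled by library total, with a log2 ratio of 0.47, while miR-199a-3p stayed above it at 1.21.

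At day 7, miR-143-3p was lower with FK506 and miR-199a-3p was higher. Of 128 miRNAs compared, 18.8% were higher and 46.9% were lower, so lower calls were common at that day. miR-143-3p was 5.70-fold lower (95% counting interval 5.31 to 6.14), with 842 reads with FK506 against 6608 untreated. miR-199a-3p was 2.14-fold higher (1.37 to 3.40), with 53 reads with FK506 and 34 untreated. miR-126-5p was 1.83-fold lower (1.54 to 2.18), which is under the rule, and miR-126-3p had too few reads, with a log2 ratio of -0.12. The median log2 ratio was -0.49 over the 4 members and -0.37 over all 156. These values rest on the untreated day 7 library. In it the neuron markers miR-9-5p and miR-124-3p had 7683 and 182 reads, and in the FK506 day 7 library they had 0; their part in the member ratios was not tested. By the reads outside the pair the split of all miRNAs was 44 higher against 46 lower, in place of 24 against 60. On that scale the log2 ratio was -1.44 for miR-143-3p, 2.08 for miR-199a-3p, 0.20 for miR-126-5p and 0.90 for miR-126-3p, so both miR-126 arms changed sign. By library total the split was 9 against 73, miR-143-3p was at -3.02, miR-199a-3p was under the rule at 0.57 and miR-126-5p was lower at -1.37.

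At day 14, all 4 measured members were higher with FK506. Of 129 miRNAs compared, 20.2% were higher and 15.5% were lower. miR-199a-3p was 6.58-fold higher (95% counting interval 4.40 to 10.3), with 447 reads with FK506 against 25 untreated. miR-126-5p was 4.29-fold higher (3.68 to 5.03) and its opposite arm miR-126-3p 2.51-fold higher (1.68 to 3.88). miR-143-3p was 3.74-fold higher (3.44 to 4.08), in the opposite direction to day 7. The median log2 ratio was 2.00 over the 4 members and 0.00 over all 156 measured miRNAs. miR-199a-5p, with 34 reads with FK506 and 1 untreated, had a ratio of 12.5 (2.10 to 509) and was under the read limit. Scaled by library total, 83 miRNAs were higher and 3 lower at this day, in place of 26 and 20, and the median of all compared was 1.32. By the reads outside the pair the split was 34 against 17. The 4 members were past the rule under each scaling tried. Of these, miR-126-3p, with 191 reads with FK506 and 28 untreated, and miR-199a-3p met the read limit only through the FK506 library. With so few untreated reads neither could have been called lower, so the count of 4 is partly built in. The same limit held for miR-199a-3p at days 3 and 7.

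The scaling moved the members of a day together. The effective size was 2.08 times the total in the FK506 day 14 library, against 0.830 in the untreated day 14 library. The members' order within a day was not affected, because scaling shifts all of them by nearly the same amount.

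**Figure D2:**
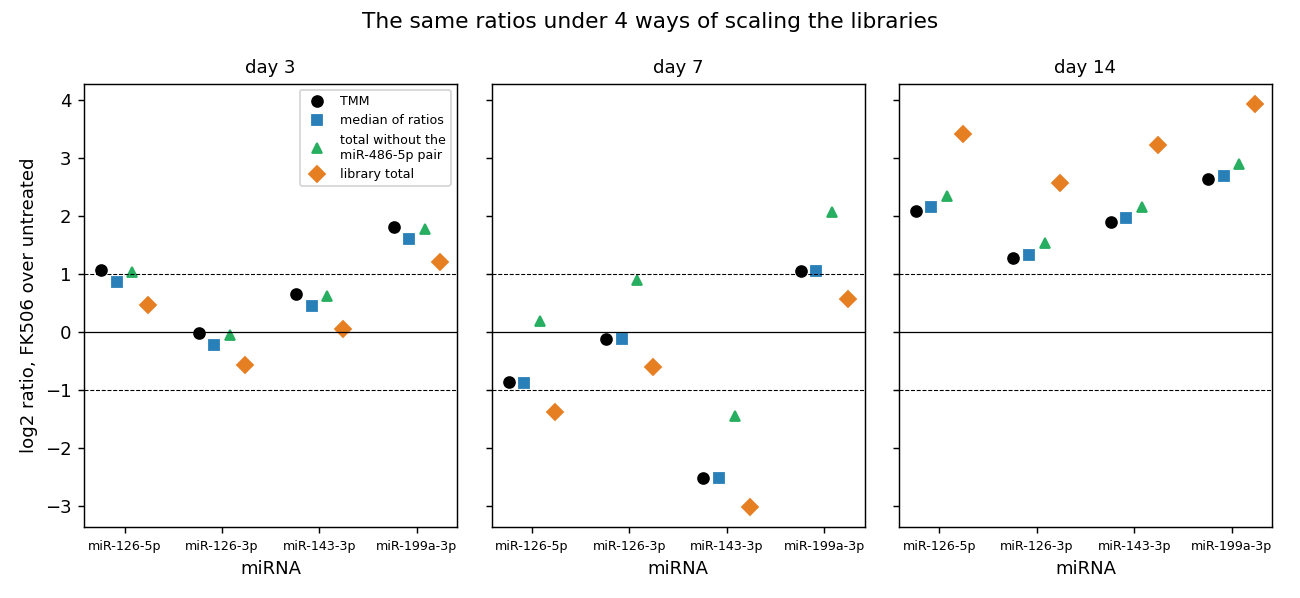
Log2 ratio of FK506 over untreated for the 4 fitted members at each day under 4 ways of scaling the libraries. miR-199a-3p is above 0 at each day under the ways drawn, while miR-126-5p at day 7 lies at -1.37 by library total and at 0.20 by the reads outside the pair.

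Ratios of 2 members in the same library need no scaling. miR-126-5p exceeded miR-126-3p 18.6-fold, 6.50-fold and 11.0-fold at days 3, 7 and 14 with FK506, and 8.67-fold, 10.9-fold and 6.43-fold untreated. The 5p arm was thus the major one in each of the 6 libraries. The mean log2 ratio was 3.46 ± 0.758 with FK506 and 3.08 ± 0.382 untreated (SD, n = 3 each), and the difference of 0.38 gave an exact two-sided permutation p of 0.4. The smallest p that 3 against 3 libraries allow is 0.1. This permutation, here and below, shuffled all 6 libraries and did not pair them by day. Within miR-199a, the 3p arm exceeded the 5p arm 52.0-fold, 26.5-fold and 13.1-fold with FK506, and 22.5-fold, 4.86-fold and 25.0-fold untreated, on 1 to 34 reads of the 5p arm.

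The ratio of smooth muscle miR-143-3p to mesenchymal miR-199a-3p was lower in each FK506 library than in any untreated one. miR-143-3p exceeded miR-199a-3p 10.1-fold, 15.9-fold and 13.6-fold at days 3, 7 and 14 with FK506, and 23.3-fold, 194-fold and 23.9-fold untreated. The log2 difference of the mean ratios was -1.88, with an exact two-sided permutation p of 0.1 (n = 3 each), which became 0.55 after Benjamini-Hochberg adjustment over 11 ratios. Without the untreated day 7 library the difference was -0.86. The counting intervals of 15.9 with FK506 at day 7 (12.0 to 21.4) and 23.3 untreated at day 3 (17.3 to 32.1) overlapped. miR-126-5p exceeded miR-199a-3p 3.04-fold, 3.43-fold and 4.70-fold with FK506, and 5.20-fold, 13.5-fold and 7.20-fold untreated. These ratios also did not overlap, with a log2 difference of -1.12 and an exact permutation p of 0.1, adjusted to 0.55. The difference was -0.74 without the untreated day 7 library. Both ratios share miR-199a-3p, whose own level was higher in each FK506 library than in any untreated one. A lower ratio to it is thus partly built in and need not be particular to miR-143-3p or miR-126-5p. How many of all miRNAs had a separated ratio to miR-199a-3p was not counted. Counting intervals overlapped for 4.70 with FK506 at day 14 (4.24 to 5.21) and 5.20 untreated at day 3 (3.77 to 7.32). Relative to miR-223-3p, a myeloid and platelet miRNA, miR-199a-3p was 8.0-fold, 3.53-fold and 6.67-fold with FK506, and 4.50-fold, 3.78-fold and 4.17-fold untreated, which overlapped (exact permutation p of 0.4, n = 3 each). miR-143-3p exceeded its cluster partner miR-145a-5p 30.1-fold, 168-fold and 124-fold with FK506, and 61.6-fold, 330-fold and 66.3-fold untreated.

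**Figure D3:**
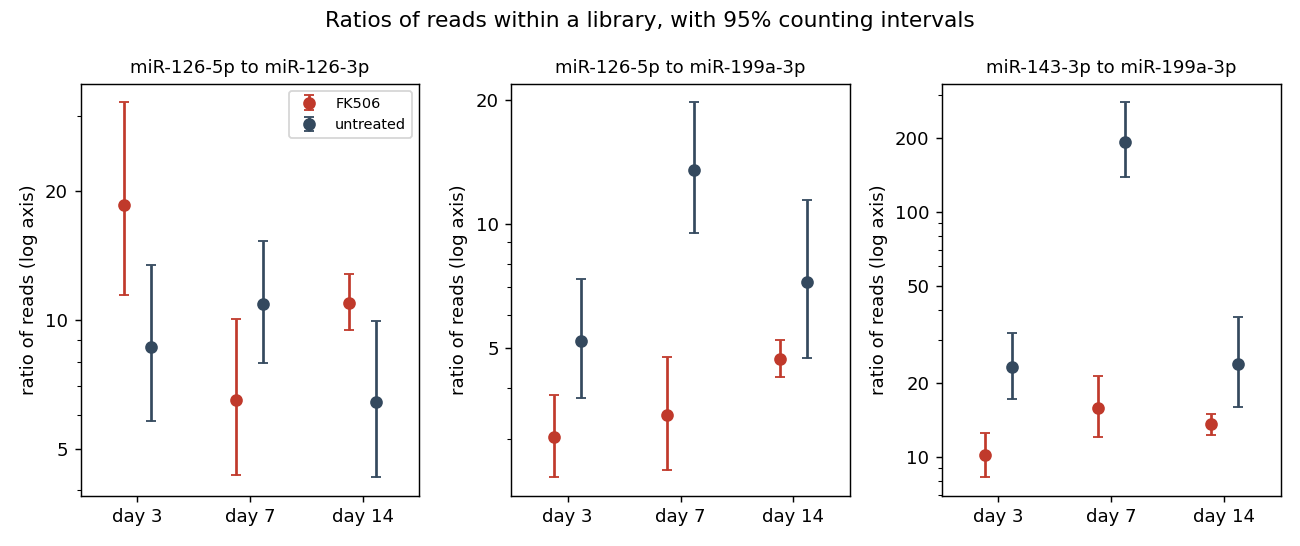
Ratios of reads within a library, on a log axis, at days 3, 7 and 14, with FK506 left of untreated and 95% counting intervals as bars. The miR-126 arms overlap between treatments, while the ratio to miR-199a-3p is lower with FK506 than untreated in each panel that has it. In those panels some bars of the treatments overlap.

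Later days were also set against day 3 within a treatment. With FK506, day 7 over day 3 had 5.43% of 92 miRNAs lower and 3.26% higher, and miR-199a-3p was the only member past the rule, at a log2 ratio of -1.07. With FK506, day 14 over day 3 had 10.2% of 127 higher and 16.5% lower, and miR-126-3p was the only member past it, 3.24-fold higher (95% counting interval 1.97 to 5.67). The others had log2 ratios of 0.93 for miR-126-5p, 0.73 for miR-143-3p and 0.30 for miR-199a-3p. Without FK506, day 7 over day 3 had 47.7% of 128 higher and 14.1% lower, with miR-143-3p 6.64-fold higher (6.22 to 7.10) and miR-126-5p 2.06-fold higher (1.76 to 2.42). Without FK506, day 14 over day 3 had 10.8% of 102 higher and 6.86% lower, and no member was past the rule, with log2 ratios between -0.53 and 0.32. In both comparisons without FK506, miR-126-3p and miR-199a-3p had under 50 reads in each library and could not be called. With FK506, miR-126-3p could not be called for day 7 over day 3, for the same reason. The comparisons of days 7 and 14 share the day 3 library of their arm. Without FK506, day 7 over day 3 had 46 higher and 47 lower by the reads outside the pair, in place of 61 and 18, and day 14 over day 3 had 4 or 5 higher and 10 to 12 lower under each other scaling, in place of 11 and 7. With FK506, day 7 over day 3 had 4 higher and 4 lower by library total and 4 and 3 by the reads outside the pair, in place of 3 and 5. With FK506, day 14 over day 3 had 18 and 17 with TMM factors that left out the untreated day 7 library, in place of 13 and 21. By library total, 4 members were past the rule for day 14 over day 3 with FK506, where 91 miRNAs were higher and 0 lower.

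Across the 3 days, no member passed the test. The quasi-likelihood test of edgeR, fitted with terms for day and treatment, called 0 of 153 miRNAs at a Benjamini-Hochberg adjusted p under 0.05, which is 0% of those tested. At an unadjusted p under 0.05 it had 17, or 11.1%, while DESeq2 called 5 and limma 1 after adjustment. The 153 and the 17 hold both miR-199a-3p and its copy miR-199b-3p, and so does the adjustment. For miR-199a-3p the log2 change was 1.89 ± 0.658 (SE), higher at 3 of 3 days, with an edgeR p of 0.0130 and a Benjamini-Hochberg adjusted p of 0.284. That adjusted p ran from 0.0601 to 0.912 over 13 alternatives, and the log2 change from 1.38 to 2.32. For miR-126-5p the log2 change was 0.80 ± 0.732, higher at 2 of 3 days, with an edgeR adjusted p of 0.802 (0.371 to 0.995 over the alternatives). The edgeR adjusted p was 0.894 for miR-126-3p, with a log2 change of 0.40 ± 0.699, and 0.968 for miR-143-3p, with 0.13 ± 0.911. The ranges over alternatives were 0.675 to 0.998 for miR-126-3p and 0.507 to 0.991 for miR-143-3p. In the same fit, no day contrast called a miRNA after adjustment, and the counts at an unadjusted p under 0.05 were 7 (4.58%) for day 7 over day 3, 0 for day 14 over day 3 and 11 (7.19%) for day 14 over day 7. The largest member change there was that of miR-143-3p for day 7 over day 3, at 1.66 ± 1.06 on the log2 scale, with an edgeR adjusted p of 0.930.

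The profiles most like each member were found by the mean absolute difference of centred log2 levels over the 6 libraries, among 148 other miRNAs. miR-126-3p was closest to miR-29a-3p (0.21), miR-30b-5p (0.25) and miR-203-3p (0.30), with a median of 0.76 over the others. miR-126-5p was closest to miR-301a-3p (0.27), miR-19b-3p (0.42) and miR-223-3p (0.43), against a median of 0.89. Its distance to its own 3p arm was 0.44. miR-143-3p was closest to miR-27b-3p (0.29), miR-100-5p (0.38) and miR-99a-5p (0.51), against a median of 1.05. miR-199a-3p was closest to miR-223-3p (0.43), miR-142-5p (0.46) and miR-205-5p (0.51), against a median of 1.00. The first 2 of these are on the platelet list, and their FK506 levels were, like those of miR-199a-3p, above all untreated levels. They were picked for a like profile, so this likeness is partly built in. Not all entries of that list were so separated. miR-142-3p had 5.46, 3.73 and 8.03 CPM with FK506 and 5.51, 3.29 and 1.35 CPM untreated, on 6 to 97 reads. miR-142-5p had 236, 243 and 351 CPM at days 3, 7 and 14 with FK506, and 118, 80.7 and 151 CPM untreated. miR-223-3p had 3.74, 3.99 and 5.55 CPM with FK506, on 13 to 67 reads, and 1.84, 1.74 and 1.35 CPM untreated, on 6 to 10 reads. Neither passed the test across days, with edgeR Benjamini-Hochberg adjusted p of 0.420 for miR-142-5p and 0.609 for miR-223-3p. Between members the distance was largest for miR-143-3p and miR-199a-3p (0.98) and smallest for the miR-126 arms.

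Other miRNAs listed for these cell types were counted by the same rule, beside the shares over all miRNAs compared. These were 20.4% higher with 11.2% lower for day 3, 18.8% higher with 46.9% lower for day 7, and 20.2% higher with 15.5% lower for day 14. Of 12 measured other endothelial miRNAs, 0 were past the size rule at day 3, 2 were higher and 6 lower at day 7, and 4 were higher and 0 lower at day 14, with median log2 ratios of 0.50, -1.29 and 0.53. miR-10b-5p, the most abundant of them, was higher with FK506 at day 7 with a log2 ratio of 2.28, where miR-27b-3p was lower at -2.88. miR-27b-3p had 1098, 821 and 5856 reads with FK506 and 1284, 8323 and 1263 reads untreated, so its highest count was in the untreated day 7 library, as for miR-143-3p. Of 6 measured other mesenchymal and fibroblast miRNAs, 0 were past the rule at day 3, 3 were lower at day 7 and 1 was higher at day 14, with medians of -0.27, -1.27 and 0.48. The lists share entries. miR-100-5p is on this list and the endothelial one, so its calls at day 7 (-3.40) and day 14 (1.59) count in both. It was the 1 mesenchymal call at day 14. miR-21a-5p is also on the platelet list, as is endothelial miR-24-3p. The list counts at each day are of measured miRNAs, while the shares over all, such as the 46.9%, are of miRNAs compared. They have different bases. Of all 156 measured miRNAs, 60 were lower at day 7, beside 6 of 12 endothelial and 3 of 6 mesenchymal and fibroblast ones. On the endothelial list, miR-296-5p, miR-210-3p and miR-24-3p were measured but had too few reads to be compared at day 7. At day 3 these, miR-100-5p, miR-132-3p and miR-218-5p had too few, and at day 14 miR-132-3p and miR-218-5p. Mesenchymal miR-99a-5p and miR-100-5p had too few at day 3. Platelet miR-223-3p, miR-142-3p and miR-24-3p had too few at days 3 and 7. The 0 calls at day 3 thus cover only the part of each list that could be called. Whether either list differed from all miRNAs was not tested. Of 11 measured platelet miRNAs, 0 were past the rule at day 3, 2 were higher and 3 lower at day 7, and 3 were higher at day 14. Their summed level was 3284, 3939 and 3541 CPM with FK506 and 3553, 2668 and 5459 CPM untreated, and most of it came from miR-191-5p and miR-22-3p, the second of which is also on the mesenchymal list. Without these 2, the sum was 916, 777 and 1025 CPM with FK506 and 690, 899 and 962 CPM untreated. On the TMM scale the full sum was thus lower with FK506 at days 3 and 14 and higher at day 7. The reduced sum turned round at each day on that scale. Per 10000 reads outside the pair, the reduced sum was 305, 283 and 345 with FK506 and 234, 156 and 270 untreated. There it was higher with FK506 at each day. By library total, the full sum was also higher with FK506 at day 14, where it had 42774 reads with FK506 and 24271 untreated. Of the 12 listed platelet miRNAs, 1 was at 0 in the untreated day 3 library and 0 were at 0 in the other 5, and their part in the member differences was not tested. Red cell lysis, read as miR-451a over miR-23a-3p, gave ratios of 23.5, 13.7 and 26.4 with FK506 and 21, 43.6 and 14.5 untreated. These rest on 33, 56 and 152 reads of miR-23a-3p with FK506 and 63, 12 and 55 untreated. In the untreated day 7 library, with the ratio of 43.6, miR-451a itself had its lowest level, 101 CPM.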

How the data were processed

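Small RNA was sequenced from serum of 6 mouse groups. Per the labels' protocols, RNA of 15 to 30 nt was gel-selected, made into barcoded cDNA with 11 libraries pooled in a lane, and linker-trimmed reads were matched to miRBase release 20 with Bowtie and BLAST; the submitters' processing notes list Bowtie too. The deposited values are raw read counts per mature miRNA, per the file headers, with no normalization. The sources used here give no versions, no genome build and no rule for multiply matching reads, so family members may share reads.

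The analysis used TMM in edgeR 4.0.16 with R 4.3.3 over 153 miRNAs kept by filterByExpr (minimum count 10, treatment as group). Single days were compared by log2 ratios with a prior count of 2 and no p-value, with exact 95% binomial intervals that cover counting error only. The quasi-likelihood test of edgeR was applied to all 6 libraries (day plus treatment, 2 residual degrees of freedom), with DESeq2 1.42.0 and limma 3.58.1 as alternatives. Since nothing says how libraries relate to animals, p-values measure the spread between these libraries, which may be technical. All members were named, with their partners, the 3 most similar miRNAs of each fitted member and the most abundant members of other lists. As markers or partners, miR-9-5p, miR-124-3p, miR-223-3p, miR-142-3p and miR-145a-5p were also named. Listed miRNAs with too few reads to be compared, or on 2 lists, were named for that reason. The members, lists and ratios were chosen with earlier results of these data known. Ratios other than that of the miR-126 arms were added later.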

Additional observations from a re-analysis of the deposited data

Results flagged for a closer look

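miR-143-3p passed the size rule with opposite signs at 2 days, with a log2 ratio of FK506 over untreated of -2.51 at day 7 and 1.90 at day 14. The difference between the days was not tested, because each is 1 library against 1. The day 7 value rests on the untreated day 7 library, in which the level was 1279 CPM, and was -1.44 when scaled by the total without the pair.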

How the results depend on the processing

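Of 125 single-day or within-arm log2 ratios recomputed under alternatives, 92 moved by less than their counting interval, 33 moved by more and 0 changed the direction of a call. Of 52 values of the fit across days, 46 kept their direction and side of the threshold, and 6 turned. The 4 members past the size rule at day 14 and the 2 at day 7 were as many under each scaling. At day 7 by library total, miR-126-5p took the place of miR-199a-3p beside miR-143-3p, and both calls were lower. At day 3 the count of 2 was 1 by library total, 1 by median-of-ratios factors and 1 with TMM factors computed leaving out the untreated day 7 library, an alternative chosen after seeing the data. For day 7 over day 3 with FK506 the count of 1 was 0 by library total and 0 by the total without the pair. For day 14 over day 3 with FK506 the count of 1 was 4 by library total and 2 with those TMM factors. Without FK506, day 7 over day 3 had 1 in place of 2 by median-of-ratios factors and 1 by the total without the pair. The cause was not tested.

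Across days the count of 0 miRNAs called was 3 by the total without the pair, 4 without a filter on low counts, 5 with DESeq2, 1 with limma and 2 without the day term, and 0 to 3 when each library was left out. No member was called in any of these. The day term of the fit pairs the FK506 and untreated libraries of a day, and leaving it out turned miR-143-3p to -0.64. Leaving out each library gave -1.02 (without FK506 day 14) to 1.27 (without untreated day 7) for miR-143-3p and -0.17 (without FK506 day 14) to 0.81 for miR-126-3p. The difference in the miR-126 arm ratio ran from -0.0030 (without FK506 day 3) to 0.75. Depth limits miR-126-3p and the miR-199 5p arms, which had few reads.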
